A study of Mus musculus with 12 samples.

Results

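Suprabasin (Sbsn), keratinocyte differentiation-associated protein (Krtdap), dermokine (Dmkn), the calmodulin-like genes Calm4 and Calml3, the endoribonuclease gene Endou and the cysteine-rich tail gene Cysrt1 were followed in Krt1-/- and Krt1+/+ newborn mouse skin. These 7 genes, of 19053 genes with a probe on the array, were chosen by symbol, and all 12 probes annotated to them were read. Sbsn and Dmkn have 3 probes each, Krtdap has 2 and the other genes have 1 each. All 12 probes were detected above background on all 3 arrays of every group, so none was lost to the filter on dim probes.

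The study measured C57BL/6 mice at postnatal day 0 on 12 one-colour bead arrays. Epidermis was taken from Krt1-/- and Krt1+/+ pups, and so was skin of full thickness, which makes 4 groups of 3 arrays. The mice share age and background strain, and the labels name no agent and no other allele. Whether each array stands for its own animal is not labelled, so a p-value here reflects the scatter of these arrays, and that scatter may be technical.

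When a keratinocyte leaves the basal layer of the epidermis it stops dividing, exchanges its basal keratins for keratin 1 and keratin 10, and starts to make proteins of the outer layers. Sbsn, Dmkn and Krtdap encode secreted proteins of these suprabasal cells and lie next to each other in one gene cluster. Rising calcium is the main signal for this switch, and Calm4 (also called Scarf) and Calml3 encode small calcium-binding proteins related to calmodulin that are made mostly in stratified epithelia. Endou encodes a secreted enzyme that cuts RNA at uridines, and the human protein of Cysrt1 is known to bind late cornified envelope proteins.

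The windows around the annotated starts of these genes are shown because probes of 6 of the genes rose in Krt1-/- skin, and 5 of the 7 genes matched the RefSeq table (build GRCm38.p6). Each runs 5′ to 3′ on the gene's strand, from 250 bases before the start to 50 after it. Capitals mark TGANTCA, where N is any base, a looser form of the AP-1 element TGAGTCA. The search covered both strands.
Sbsn, chr7:30751221-30751520, + strand: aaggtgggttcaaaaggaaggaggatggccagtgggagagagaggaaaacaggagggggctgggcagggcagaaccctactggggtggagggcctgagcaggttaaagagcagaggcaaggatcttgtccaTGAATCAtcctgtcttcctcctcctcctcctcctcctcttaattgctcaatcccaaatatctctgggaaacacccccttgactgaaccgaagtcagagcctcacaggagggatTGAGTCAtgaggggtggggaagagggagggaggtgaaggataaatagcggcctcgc
Dmkn, upstream start, chr7:30763506-30763805, + strand: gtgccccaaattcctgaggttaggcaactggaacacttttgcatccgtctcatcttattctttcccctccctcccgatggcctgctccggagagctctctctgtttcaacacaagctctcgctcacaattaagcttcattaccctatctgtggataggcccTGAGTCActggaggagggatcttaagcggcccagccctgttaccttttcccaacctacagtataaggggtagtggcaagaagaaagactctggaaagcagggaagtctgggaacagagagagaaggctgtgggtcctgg
Dmkn, downstream start, chr7:30776155-30776454, + strand: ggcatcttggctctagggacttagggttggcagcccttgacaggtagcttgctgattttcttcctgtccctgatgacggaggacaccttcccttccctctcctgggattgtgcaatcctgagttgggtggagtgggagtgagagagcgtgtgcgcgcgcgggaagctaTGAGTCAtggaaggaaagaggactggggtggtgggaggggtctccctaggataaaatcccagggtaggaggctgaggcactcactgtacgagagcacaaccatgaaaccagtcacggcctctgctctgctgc
Krtdap, chr7:30787655-30787954, + strand: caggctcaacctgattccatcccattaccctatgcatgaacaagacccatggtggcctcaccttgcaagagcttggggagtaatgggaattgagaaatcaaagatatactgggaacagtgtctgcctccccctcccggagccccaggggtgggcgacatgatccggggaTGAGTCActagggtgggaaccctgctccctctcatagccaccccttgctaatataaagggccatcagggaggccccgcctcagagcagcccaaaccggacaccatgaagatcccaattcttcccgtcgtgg
Calm4, chr13:3837507-3837806, + strand: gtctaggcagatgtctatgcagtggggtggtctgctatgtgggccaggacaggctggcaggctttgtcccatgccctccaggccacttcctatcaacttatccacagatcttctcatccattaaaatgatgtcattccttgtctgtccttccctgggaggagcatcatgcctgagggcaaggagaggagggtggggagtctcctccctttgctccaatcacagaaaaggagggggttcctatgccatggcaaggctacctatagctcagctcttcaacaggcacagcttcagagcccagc
Cysrt1, chr2:25239848-25240147, - strand: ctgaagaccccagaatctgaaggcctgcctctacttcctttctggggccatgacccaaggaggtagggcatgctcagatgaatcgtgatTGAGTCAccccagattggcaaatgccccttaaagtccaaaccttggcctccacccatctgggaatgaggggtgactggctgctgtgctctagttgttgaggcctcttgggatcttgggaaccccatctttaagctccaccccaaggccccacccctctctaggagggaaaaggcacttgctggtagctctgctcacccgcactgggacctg

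The motif was found in the windows of Sbsn, Dmkn, Krtdap and Cysrt1, and these letters are not in the Calm4 window. Of all 32851 windows of 300 bases, 7.81% hold it. Counted from the start at 0, the first base of the match lies at −119 and −6 in Sbsn, at −89 and −82 in the Dmkn windows, at −81 in Krtdap and at −161 in Cysrt1. A match of letters is a description and says nothing about binding. Calml3 and Endou were not in the table.

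The median signal of an array was 93.3 to 105 intensity units, and 37.9% to 44.0% of the 45281 probes were detected. Arrays of a group correlated at 0.967 to 0.984 over the 21712 probes kept, and no 2 arrays held identical values. In the authors' tables the columns of Krt1-/- skin and Krt1+/+ epidermis come first, 6 in all, and those of the arrays labelled Krt1-/- epidermis and of Krt1+/+ skin come last. Over 16240 probes undetected on every array, pairs within such a column set correlated at 0.178 on average and pairs across the sets at 0.0891. Pairs within a set include arrays of one group and pairs across never do, so these values cannot tell column set from group. Krt1-/- skin replicate 1 correlated at 0.162 with its own set and at 0.135 with the other, values taken for this array alone. Within a tissue, genotype and column set cannot be told apart. The average of both genotype effects equals a fit with the column set as a block and is given beside the effects of single tissues.

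Krt1 itself, read by 1 probe, checks the labels. In skin it had 280, 319 and 183 intensity units on the Krt1-/- arrays, against 4329, 5915 and 1794 on the Krt1+/+ arrays, a log2 change of −4.71 (limma, adjusted p = 7.5e-05). In epidermis it had 1107, 2921 and 987 units on the arrays labelled Krt1-/-, against 1417, 2404 and 5954 on the Krt1+/+ arrays, and the log2 change of −1.08 did not pass (adjusted p = 0.18). The epidermis arrays thus overlap, so directions in epidermis are those of the array labels. Between the groups labelled Krt1-/-, Krt1 stood at a log2 difference of −2.87 (skin minus epidermis, limma adjusted p = 0.0016), and these arrays do not overlap. Averages over both tissues include the arrays labelled Krt1-/- epidermis and share this limit. The sources used here do not say which part of Krt1 was deleted or where its probe lies.

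Of the 12 probes, 7 rose in Krt1-/- skin and 0 fell, against 13.2% of all kept probes that rose there and 14.8% that fell. The 7 probes belong to Krtdap, Dmkn, Calm4, Calml3, Endou and Cysrt1, and Endou and Calm4 rose most. Without Krt1-/- skin replicate 1 or Krt1+/+ skin replicate 3, 5 of the 12 rose in skin. Leaving out Krt1-/- skin replicate 2 or Krt1+/+ skin replicate 1 left 3. In epidermis labelled Krt1-/-, 0 of 12 probes rose, against 16.2% of all probes, and 1 fell, Calml3, against 15.9%. At an unadjusted p under 0.05, 3 of the 12 were higher and 2 were lower there by limma. On average over both tissues 5 of 12 rose, against 9.66%, and 0 fell, against 10.4%, and 2 rose without the array labelled Krt1-/- epidermis replicate 1, Krt1+/+ skin replicate 1 or Krt1+/+ skin replicate 3. Both counts of 0 falls, in skin and on average, were also 0 at an unadjusted p under 0.05 by limma. The median log2 change over the 12 probes was 0.54 in skin, 0.33 in epidermis and 0.42 on average, beside −0.07, 0.02 and −0.03 over all kept probes. The arrays of the genotypes did not overlap, on the normalized scale, for 8 probes in skin, all higher in Krt1-/- (18.4% of all kept probes lay apart that way, and 23% the other way). In epidermis 2 lay apart as higher and 4 as lower on the arrays labelled Krt1-/-, against 23.1% and 22% of all kept probes. In tissue samples, fewer cells of a type and less RNA per cell cannot be told apart. A probe passed where limma's p, adjusted by Benjamini-Hochberg over 21712 probes, was under 0.05.

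**Figure D1:**
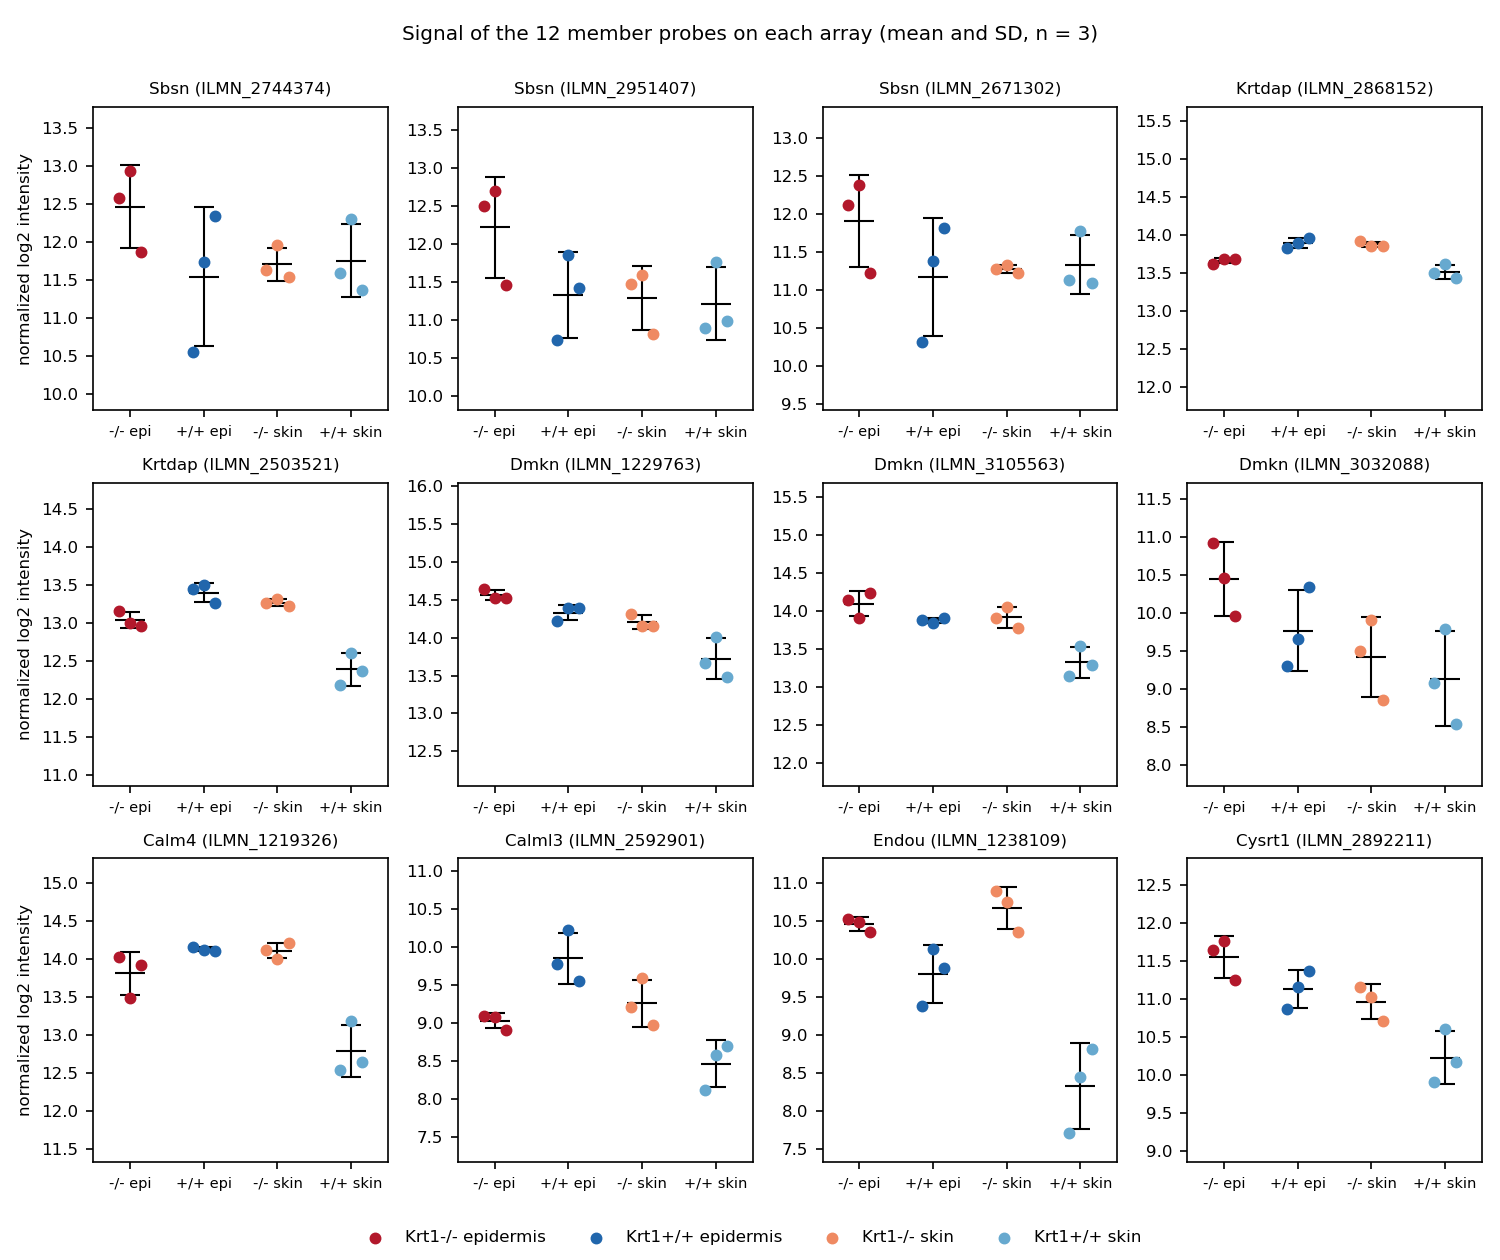
Normalized log2 intensity of the 12 probes of the 7 genes on each array. Each panel spans 4 log2 units, points are arrays by their labels, and the bar gives mean and SD of 3 arrays. All probes except ILMN_2744374 and ILMN_2671302 of Sbsn have their lowest mean in Krt1+/+ skin.

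Sbsn, the secreted suprabasin, did not pass in either tissue. Its brightest probe, ILMN_2744374, read 6662, 8863 and 4736 units on the arrays labelled Krt1-/- epidermis, against 1704, 3079 and 5509 in Krt1+/+ epidermis. In skin it read 4024, 3285 and 3509 units on Krt1-/- arrays, against 3286, 3746 and 1769 on Krt1+/+ arrays. The genotypes overlap in both tissues, and Krt1+/+ epidermis replicate 3 reaches into the range of the arrays labelled Krt1-/-. The log2 change was 0.92 ± 0.395 SE in epidermis (95% confidence interval 0.07 to 1.77, limma adjusted p = 0.093) and −0.05 ± 0.395 SE in skin (−0.90 to 0.80, limma adjusted p = 0.95).

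Probes ILMN_2951407 and ILMN_2671302 of Sbsn gave 0.89 and 0.74 in epidermis (limma adjusted p = 0.079 and 0.13) and 0.08 and −0.06 in skin. Over the 12 arrays the 3 probes correlated at 0.855 to 0.984. Without the array labelled Krt1-/- epidermis replicate 3, all 3 probes passed in epidermis, with log2 changes of 1.22, 1.27 and 1.08 (limma adjusted p = 0.043, 0.016 and 0.036). Without Krt1+/+ epidermis replicate 3, ILMN_2744374 (1.31, adjusted p = 0.022) and ILMN_2671302 (1.06, adjusted p = 0.043) passed, by limma. The difference between the tissues did not pass for any of the 3 (limma adjusted p = 0.21 to 0.26).

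Krtdap, a small secreted protein of differentiating keratinocytes, rose in Krt1-/- skin by its probe ILMN_2503521. That probe read 11859, 8371 and 10580 units on Krt1-/- skin arrays, against 4747, 4503 and 3670 on Krt1+/+ skin arrays, and the groups do not overlap. Its log2 change was 0.88 ± 0.158 SE, or 1.84-fold (limma adjusted p = 0.0011). In epidermis it read 9715, 9130 and 9570 units on the arrays labelled Krt1-/-, against 12414, 10969 and 11057 on Krt1+/+ arrays. Here the arrays lay apart the other way, and the change of −0.35 did not pass (limma adjusted p = 0.10).

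The brighter Krtdap probe, ILMN_2868152, differed less. It read 17073, 12244 and 15933 units in Krt1-/- skin, against 11165, 9459 and 8203 in Krt1+/+ skin, and its log2 change of 0.36 did not pass (limma adjusted p = 0.066). With no background correction it did (limma adjusted p = 0.0023). In epidermis it was at −0.23 and did not pass (limma adjusted p = 0.23). With no background correction both Krtdap probes passed as lower on the arrays labelled Krt1-/- epidermis (limma adjusted p = 0.020 for ILMN_2868152 and 0.028 for ILMN_2503521). Its signals reached 68.2% of the brightest probe of the array, against 47.4% for ILMN_2503521, 79.1% for Calm4 and 100% for the brightest Dmkn probe. Near the top of the scale differences can be compressed, and how far that applies here was not tested. The genotype effect differed between tissues for ILMN_2503521, by −1.23 (epidermis minus skin, limma adjusted p = 9.1e-04). For ILMN_2868152 the difference was −0.59 (limma adjusted p = 0.032), and when single arrays were left out it held only without Krt1-/- skin replicate 2, Krt1+/+ epidermis replicate 1 or Krt1+/+ skin replicate 2 (limma adjusted p up to 0.071 without any 1 of the other 9). On average over both tissues neither probe passed, at 0.26 and 0.07 (limma adjusted p = 0.12 and 0.68).

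Dmkn, the secreted dermokine, holds the brightest probe of all on the array labelled Krt1-/- epidermis replicate 1. That probe, ILMN_1229763, read 25746, 24547 and 25715 units on the arrays labelled Krt1-/- epidermis, against 21186, 20655 and 24299 in Krt1+/+ epidermis. In skin it read 22827, 15304 and 20560 units on Krt1-/- arrays, against 12848, 13314 and 8320 on Krt1+/+ arrays. The arrays of the genotypes do not overlap in either tissue, and the Krt1-/- arrays are the higher ones. The log2 change was 0.48 ± 0.164 SE in skin (limma adjusted p = 0.041), 0.23 ± 0.164 SE in epidermis (limma adjusted p = 0.31) and 0.36 on average (limma adjusted p = 0.044). The skin call was lost in a fit of the skin arrays alone (limma adjusted p = 0.092), and with single arrays left out it held only without Krt1+/+ epidermis replicate 1, the array labelled Krt1-/- epidermis replicate 3 or Krt1+/+ skin replicate 2 (limma adjusted p = 0.051 to 0.16 without any 1 of the other 9 arrays). The average held only without Krt1+/+ skin replicate 2 (limma adjusted p = 0.019).

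The second bright Dmkn probe, ILMN_3105563, read 16800, 14126 and 15074 units in Krt1-/- skin, against 8780, 9233 and 6812 in Krt1+/+ skin. It rose 1.51-fold in Krt1-/- skin (a log2 change of 0.59 ± 0.162 SE, limma adjusted p = 0.015) and 1.32-fold on average (log2 0.40, limma adjusted p = 0.024). The skin call was lost without Krt1-/- skin replicate 2 (limma adjusted p = 0.053) or Krt1+/+ skin replicate 1 (limma adjusted p = 0.071). The average was lost without Krt1-/- skin replicate 2, Krt1+/+ epidermis replicate 2, the array labelled Krt1-/- epidermis replicate 1 or 3, or Krt1+/+ skin replicate 1 or 3 (limma adjusted p = 0.053 to 0.061). The dim probe ILMN_3032088 read 592 to 917 units in Krt1-/- skin, against 339 to 781 in Krt1+/+ skin, and did not pass in skin (log2 0.29, limma adjusted p = 0.61) or in epidermis (0.68, limma adjusted p = 0.18). Dmkn makes several isoforms from separate starts, and the isoforms that each probe reads were not determined.

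Calm4, the skin calmodulin-like protein Scarf, was 2.50-fold higher in Krt1-/- skin. It read 19569, 13909 and 21141 units on Krt1-/- skin arrays, against 5897, 7036 and 4326 on Krt1+/+ skin arrays. The groups lie far apart, with a log2 change of 1.32 ± 0.196 SE (limma adjusted p = 2.9e-04). In epidermis it read 17782, 12521 and 18341 units on the arrays labelled Krt1-/-, against 20088, 17937 and 21200 on Krt1+/+ arrays. On the normalized scale the arrays labelled Krt1-/- are the lower ones. The epidermis change of −0.32 ± 0.196 SE did not pass (95% confidence interval −0.74 to 0.10, limma adjusted p = 0.24). The genotype effects differed by −1.64 (limma adjusted p = 5.3e-04). On average Calm4 was 1.41-fold higher (limma adjusted p = 0.021), a call lost without the array labelled Krt1-/- epidermis replicate 1 (limma adjusted p = 0.057), Krt1+/+ skin replicate 1 (limma adjusted p = 0.058) or Krt1+/+ skin replicate 3 (limma adjusted p = 0.056).

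Calml3, whose human protein is known to bind the motor protein myosin 10, moved in opposite directions in the tissues. It read 762, 703 and 638 units in Krt1-/- skin, against 434, 404 and 366 in Krt1+/+ skin, and rose 1.73-fold (log2 0.79 ± 0.221 SE, limma adjusted p = 0.016). In epidermis it read 594, 682 and 658 units on the arrays labelled Krt1-/-, against 1048, 1123 and 816 on Krt1+/+ arrays. It fell there by 0.82 ± 0.221 SE on the log2 scale (limma adjusted p = 0.012). The groups overlap in neither tissue, the effects differed by −1.62 (limma adjusted p = 0.0014), and the average was −0.01 (95% confidence interval −0.35 to 0.32). The fall was lost without Krt1+/+ epidermis replicate 2 (limma adjusted p = 0.063), and the rise without Krt1-/- skin replicate 2 (limma adjusted p = 0.065) or Krt1+/+ skin replicate 1 (limma adjusted p = 0.081).

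Endou, the uridine-specific endoribonuclease, showed the largest genotype effect of the 7 genes in skin and on average. It read 2370, 1469 and 1573 units in Krt1-/- skin, against 358, 377 and 392 in Krt1+/+ skin. That is 5.09-fold higher (log2 2.35 ± 0.268 SE, limma adjusted p = 3.9e-05), and the groups lie far apart. In epidermis it read 1537, 1749 and 1722 units on the arrays labelled Krt1-/-, against 828, 1064 and 1002 on Krt1+/+ arrays. These arrays do not overlap either, but the change of 0.66 ± 0.268 SE did not pass (limma adjusted p = 0.078). It passed without Krt1+/+ skin replicate 1 (limma adjusted p = 0.037), in a fit of the epidermis arrays alone (limma adjusted p = 0.044) and with median centring (0.84, limma adjusted p = 0.012). On average Endou rose 2.83-fold (95% confidence interval of the log2 change 1.09 to 1.91, limma adjusted p = 1.5e-04), and this call held without any single array (1.36 to 1.63).

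Cysrt1 rose in skin and on average. It read 2890, 1755 and 1986 units in Krt1-/- skin, against 1189, 1270 and 846 in Krt1+/+ skin, and was 1.67-fold higher (log2 0.74 ± 0.219 SE, limma adjusted p = 0.023). In epidermis it read 3419, 4164 and 3092 units on the arrays labelled Krt1-/-, against 2121, 2082 and 2645 on Krt1+/+ arrays. These overlap once normalized, and the log2 change of 0.42 did not pass (limma adjusted p = 0.16), and the effects of the tissues were not shown to differ (−0.31, 95% confidence interval −0.98 to 0.35). On average Cysrt1 was higher by a log2 change of 0.58 ± 0.155 SE (limma adjusted p = 0.018), which held without any single array (limma adjusted p up to 0.048). The skin call was lost without Krt1-/- skin replicate 1 (limma adjusted p = 0.085) or 2 (limma adjusted p = 0.056), or Krt1+/+ skin replicate 1 (limma adjusted p = 0.10) or 3 (limma adjusted p = 0.061).

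**Figure D2:**
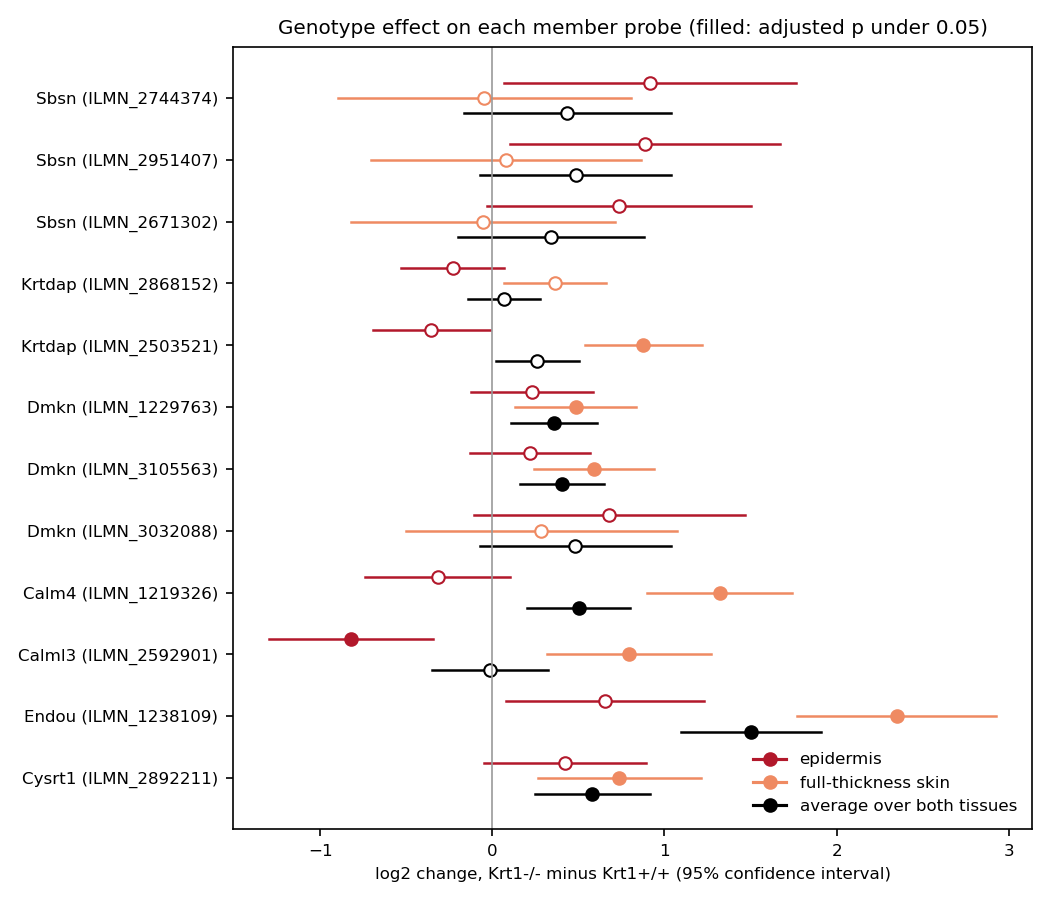
Log2 change, Krt1-/- minus Krt1+/+, of each probe in epidermis, in full-thickness skin and on average over both tissues, with 95% confidence intervals; filled points passed. Endou lies farthest to the right in skin (2.35), and Calml3 is the probe that passed on both sides of 0.

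For 5 of the 12 probes the genotype effect differed between epidermis and skin, against 32.1% of all kept probes that differed. These are both probes of Krtdap and those of Calm4, Calml3 and Endou, and in each the effect was lower in epidermis (14.7% of all kept probes). This difference sets the same arrays against each other as the column sets do, so the contrasts cannot be told apart. For Dmkn, Cysrt1 and Sbsn no difference between tissues passed, and the bright Dmkn probes and Cysrt1 pointed upward in both tissues.

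**Figure D3:**
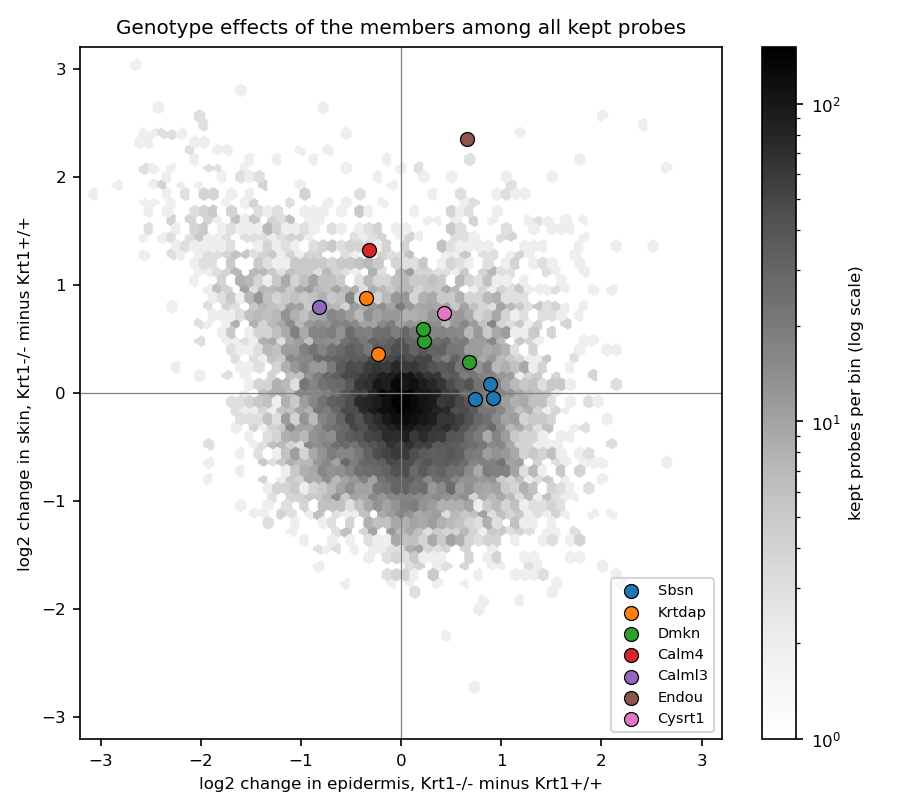
Genotype effect in skin (vertical) against that in epidermis (horizontal) for the kept probes in grey, darker where a bin holds more, with the 12 probes coloured by gene; kept probes beyond the axes are not drawn. Calm4, Calml3 and Krtdap lie above 0 in skin and below 0 in epidermis, and Endou, Dmkn and Cysrt1 lie above 0 in both.

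On the normalized log2 scale Endou stood at 10.67 ± 0.28 in Krt1-/- skin and 8.33 ± 0.57 in Krt1+/+ skin, and at 10.46 ± 0.09 in epidermis labelled Krt1-/- and 9.80 ± 0.38 in Krt1+/+ epidermis (SD, n = 3 each). Its highest groups, Krt1-/- skin and epidermis labelled Krt1-/-, overlap. Calm4 stood at 14.11 ± 0.10 in Krt1-/- skin and 12.79 ± 0.35 in Krt1+/+ skin, and at 13.81 ± 0.28 in epidermis labelled Krt1-/- and 14.13 ± 0.03 in Krt1+/+ epidermis (SD, n = 3 each). Krt1-/- skin and Krt1+/+ epidermis were its highest groups and differ by less than their spread.

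Calml3 stood at 9.26 ± 0.31 in Krt1-/- skin and 8.47 ± 0.31 in Krt1+/+ skin, and at 9.03 ± 0.10 in epidermis labelled Krt1-/- and 9.85 ± 0.34 in Krt1+/+ epidermis (SD, n = 3 each). Krt1+/+ epidermis was highest, and Krt1-/- skin and epidermis labelled Krt1-/- overlap. Cysrt1 stood at 10.96 ± 0.23 in Krt1-/- skin and 10.22 ± 0.35 in Krt1+/+ skin, and at 11.55 ± 0.27 in epidermis labelled Krt1-/- and 11.13 ± 0.25 in Krt1+/+ epidermis (SD, n = 3 each). Epidermis labelled Krt1-/- was its highest group. For these 4 genes, as for the probes of Krtdap and Dmkn, Krt1+/+ skin had the lowest mean.

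Full-thickness skin holds dermis, muscle and fat beside epidermis, so its epidermal RNA is a part of the whole. Skin and epidermis of one genotype lie in different column sets, so within a genotype tissue and column set cannot be told apart, and the average over genotypes is balanced over the sets. Between the Krt1+/+ groups 8 of the 12 probes were lower in skin than in epidermis, against 21.3% of all kept probes that were lower. Endou was 2.79-fold lower (log2 −1.48, limma adjusted p = 5.8e-04), Calml3 2.62-fold (adjusted p = 2.0e-04) and Calm4 2.53-fold (adjusted p = 9.6e-05), by limma. Cysrt1 was 1.87-fold lower, Krtdap 2.01-fold by ILMN_2503521, and Dmkn 1.52-fold by ILMN_1229763. The Sbsn probes did not pass between the Krt1+/+ groups (log2 −0.12 to 0.21).

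Between the groups labelled Krt1-/-, 2 of the 12 probes were lower in skin, against 23.2% of all kept probes, Cysrt1 (log2 −0.59, limma adjusted p = 0.045) and the dim Dmkn probe (−1.03, limma adjusted p = 0.038). Calm4, Calml3, Endou and both Krtdap probes were at 0.21 to 0.30 and did not pass. The difference between these counts of 8 and 2 follows the same contrast of arrays as the column sets. Averaged over genotypes, 8 of the 12 probes were lower in skin, against 25.4% of all kept probes. Of these, ILMN_3105563 of Dmkn was lost without Krt1+/+ skin replicate 1 (limma adjusted p = 0.055), and ILMN_3032088 without Krt1+/+ epidermis replicate 3 (limma adjusted p = 0.052), the array labelled Krt1-/- epidermis replicate 1 (limma adjusted p = 0.053) or Krt1+/+ skin replicate 3 (limma adjusted p = 0.054).

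**Figure D4:**
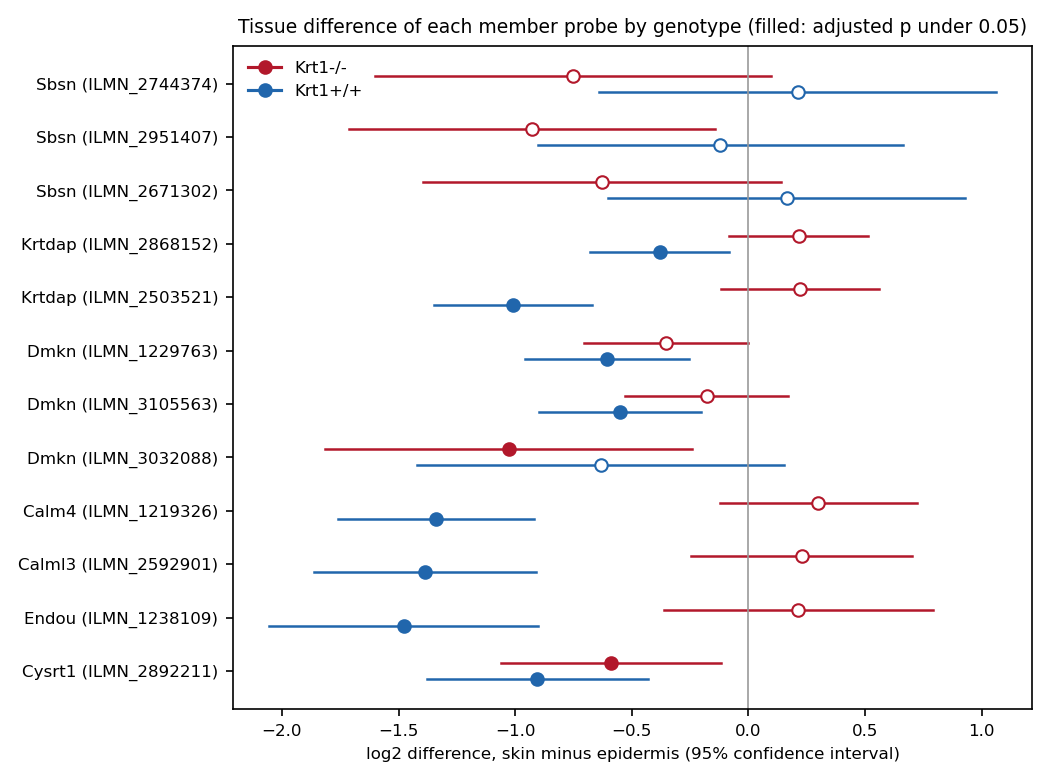
Log2 difference, full-thickness skin minus epidermis, of each probe between the groups labelled Krt1-/- and between the Krt1+/+ groups, with 95% confidence intervals; filled points passed. Calm4, Calml3, Endou and Krtdap lie below 0 between the Krt1+/+ groups, and above 0, without passing, between the groups labelled Krt1-/-.

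The markers of the tissue layers were read beside these results. Between skin and epidermis, averaged over genotypes, all 6 measured fibroblast markers and all 5 skeletal muscle markers were higher in skin, against 18.7% of all genes, and 6 of 7 basal keratinocyte markers were lower, against 23.7%. The summed signal of the 6 fibroblast markers was 19271 to 30655 units in Krt1-/- skin, against 24745 to 37908 in Krt1+/+ skin, and 1 of 6 fell, against 15.9% of all genes that fell in Krt1-/- skin and 14.3% that rose. That of the 4 endothelial markers was 1103 to 1447 units in Krt1-/- skin, against 1841 to 2676 in Krt1+/+ skin, and all 4 fell. The 5 muscle markers summed to 36518 to 51359 units in Krt1-/- skin, against 34378 to 64786 in Krt1+/+ skin, and 1 fell. Of 7 basal keratinocyte markers 1 rose and 2 fell in Krt1-/- skin, with sums of 21713 to 22940 units, against 22379 to 28187 in Krt1+/+ skin. Of 4 hair follicle markers 2 fell, of 4 immune markers 1 fell, and none of 3 adipocyte markers passed in Krt1-/- skin. Of 6 suprabasal markers, Krt1 among them, 2 rose and 1 fell.

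Hair follicle markers were also lower in epidermis, with sums of 2257 to 2584 units on the arrays labelled Krt1-/-, against 4163 to 6699 on Krt1+/+ arrays, and 2 of 4 fell there, against 16.9% of all genes that fell and 15.1% that rose. On average over both tissues 3 of 4 hair follicle markers and 3 of 4 endothelial markers fell, against 12.4% of all genes that fell and 10.5% that rose. In epidermis labelled Krt1-/-, 1 of 7 basal keratinocyte markers rose and 3 fell, and 1 of 4 immune markers fell. Of 6 fibroblast markers 1 rose and 1 fell there, 1 of 5 muscle markers rose, and 1 of 6 suprabasal markers rose. None of 4 endothelial and 3 adipocyte markers passed in epidermis. The part of the marker shifts in the changes of the 7 genes was not tested.

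The calmodulin family was read from a wider list. Calm5, the neighbour of Calm4 in the gene order and also a skin calmodulin-like gene, had 443, 274 and 373 units in Krt1-/- skin, against 203, 217 and 149 in Krt1+/+ skin. In epidermis it had 1292, 833 and 887 units on the arrays labelled Krt1-/-, against 399, 343 and 430 on Krt1+/+ arrays. The groups overlap in neither tissue, and Calm5 rose 2.61-fold in skin (log2 1.38, limma adjusted p = 0.0015) and 2.60-fold in epidermis (log2 1.38, limma adjusted p = 0.0014). Its effects differed by −0.01 (95% confidence interval −0.80 to 0.78), where those of Calm4 differed by −1.64.

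The ubiquitous calmodulin gene Calm3 fell in Krt1-/- skin by 0.77 on the log2 scale (limma adjusted p = 0.0097) and did not pass in epidermis (−0.08). Calm2 did not pass by its brightest probe (−0.06 in skin and −0.54 in epidermis), while a further probe, ILMN_2775885, gave 2.92 in skin and −3.51 in epidermis, signs that follow the column sets. The third Calm2 probe, ILMN_2451115, was lower without passing in skin (−0.75, limma adjusted p = 0.094) and in epidermis (−0.73, limma adjusted p = 0.093), and it passed on average (−0.74, limma adjusted p = 0.032). Calml4 rose in epidermis labelled Krt1-/- (log2 1.76, limma adjusted p = 1.0e-04, detected on 1 of 3 Krt1+/+ epidermis arrays) and was at −0.15 in skin, where it did not pass. Over the 13 measured genes of calmodulin and calcium signalling, 3 rose and 3 fell on average over both tissues, against 10.5% and 12.4% of all 12099 genes. Camk2d, a calmodulin-dependent kinase, rose 1.94-fold (limma adjusted p = 3.0e-04), and Nfatc1, a transcription factor of the calcineurin pathway, was 1.71-fold lower (limma adjusted p = 0.0026).

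**Figure D5:**
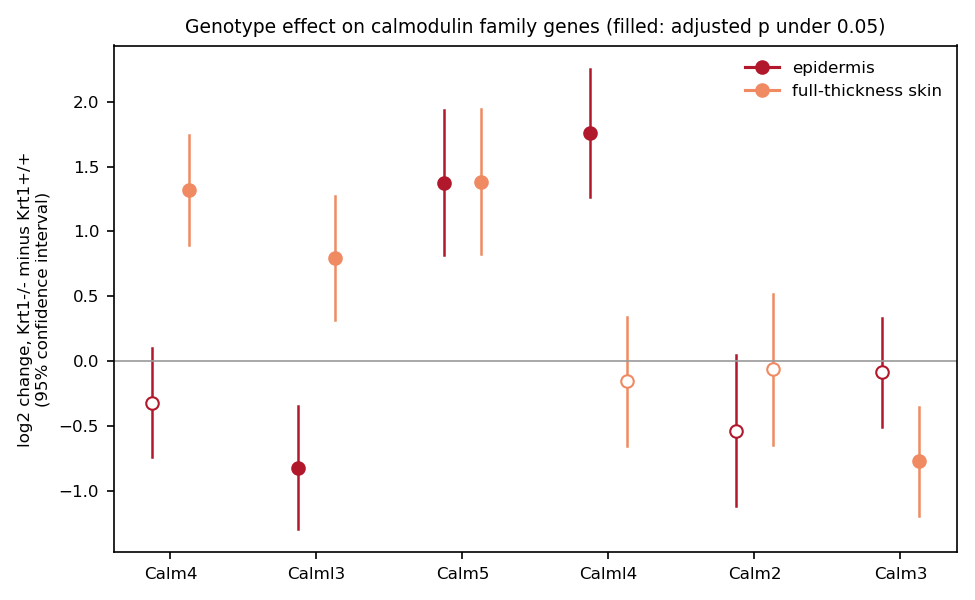
Log2 change, Krt1-/- minus Krt1+/+, in epidermis and in full-thickness skin for the measured calmodulin family genes, each by its brightest probe, with 95% confidence intervals; filled points passed. Calm5 sits at 1.38 in both tissues, and Calm4 and Calml3 lie on either side of 0.

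Genes beside the members in the gene order were read as well. Of the 20 genes flanking the Sbsn, Dmkn and Krtdap cluster 9 were measured, and on average over both tissues 0 rose, against 10.5% of all genes, and 0 fell, against 12.4%, with 2 at an unadjusted p under 0.05 by limma. The 4 with the lowest p were Gapdhs (0.26, adjusted p = 0.080), Ffar2 (−0.64, adjusted p = 0.13), Tmem147 (0.18, adjusted p = 0.24) and Upk1a (−0.16, adjusted p = 0.38). Of 10 genes flanking Calm4 and Calml3, 4 were measured: Calm5 rose, Net1 fell by 0.53 on the log2 scale (limma adjusted p = 0.039), and Gdi2 (0.05) and Asb13 (−0.30) did not pass.

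Among 15 other genes listed as suprabasal 8 rose and 0 fell on average over both tissues, against 10.5% and 12.4% of all genes. At an unadjusted p under 0.05 by limma 0 fell, and the median was 0.73 against −0.05 over all genes. The list includes genes of the cornified envelope, and its Krt10 was at 0.0044 on average (limma adjusted p = 0.99). Sprr1a, a cornified envelope precursor, was 4.51-fold higher (limma adjusted p = 1.6e-06), the cross-linking enzyme Tgm1 3.36-fold (adjusted p = 9.4e-05), the desmosomal cadherin Dsc1 2.84-fold (adjusted p = 0.0020) and the envelope protein Ivl 2.66-fold (adjusted p = 4.9e-06), by limma. Dsc1 had a log2 change of 3.33 in skin (limma adjusted p = 4.4e-05) and −0.32 in epidermis (limma adjusted p = 0.57), beside 1.32 and −0.32 for Calm4. Of 11 transcription factors of keratinocyte differentiation 3 rose, against 10.5% of all genes, and 1 fell, against 12.4%. Grhl3 rose 2.03-fold (adjusted p = 0.0033), Grhl1 1.54-fold (adjusted p = 0.017) and Cebpb 1.30-fold (adjusted p = 0.029), while Gata3 was 1.64-fold lower (adjusted p = 0.014), by limma.

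Of 12 genes from a list of other epidermal proteins, not all of them secreted, 6 rose on average, against 10.5% of all genes, and 3 fell, against 12.4%. The protease inhibitor family gene Wfdc12 was 2.87-fold higher (adjusted p = 5.6e-05) and the interleukin 1 receptor antagonist Il1rn 2.34-fold (adjusted p = 3.9e-05), by limma. Dapl1 was 4.52-fold lower (adjusted p = 7.4e-06) and Wfdc21 3.54-fold lower (adjusted p = 5.9e-05), by limma. In epidermis labelled Krt1-/- their log2 changes were −4.15 for Dapl1 and −4.62 for Wfdc21. In skin Dapl1 was at −0.20 (limma adjusted p = 0.64) and Wfdc21 rose by 0.97 (limma adjusted p = 0.023).

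For each member, the 3 genes whose levels ran most like those of its brightest probe over the 12 arrays are given. Genes with clone-type names, such as those ending in Rik, were passed over, and each gene was read by its brightest kept probe. The values are a description, since arrays of a group and column set are not independent points. Dmkn ran with Serpinb3a (Pearson r of 0.982), Ap1m2 (0.979) and Nipal1 (0.977), and Cysrt1 with Ap1m2 (0.977), Tlcd3a (0.970) and Fut2 (0.965). Endou ran with Plekhb2 (0.972), Cipc (0.966) and Gjb6 (0.962). Calm4 ran with Il1f5 (0.976), Arntl (0.966) and Kctd1 (0.964), Krtdap with Stfa3 (0.954), Abhd17c (0.953) and Hspa1b (0.950), and Calml3 with Rpl27 (0.953), Pgbd1 (0.948) and Zbtb33 (0.944). Sbsn, with Rab3d (0.924), Ephb6 (0.922) and Dgat2 (0.911), had the lowest values.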

How the data were processed

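The authors deposited bead intensity on a linear scale, not normalized, for 45281 probes, and beside it a detection p-value of every probe on each array, per the file headers. Their other deposited table, of normalized intensity by a method unnamed in the labels, served as an alternative. Intensities were background-corrected from the detection p-values and quantile normalized (limma 3.58.1, function neqc, R 4.3.3, offset 16), then taken as log2. Probes with a detection p under 0.05 on at least 3 of 12 arrays were kept (21712). Symbols came from the platform annotation, updated by gene ID (34807 probes) or accession (11); 34885 probes had 1 symbol, 18 several and 10378 none.

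A limma fit of 4 groups (lmFit, contrasts.fit, eBayes) gave the genotype effect in each tissue, their average and difference, and skin minus epidermis. Adjusted p is Benjamini-Hochberg over all kept probes, threshold 0.05. Genes outside the 7 were read by their brightest kept probe (12099 genes). The fit was also run on simulated data, and the outcome is not given here or used as support. Named were all 7 genes and Krt1, and up to 4 genes per list with the smallest unadjusted p on average over both tissues. The rule also named the 3 most alike genes per member, passing over clone-type names. Calm2, Calm3, Krt10 and the values of further probes fall outside this rule and were chosen after their values were seen. The members and lists were chosen with earlier results of these data known. Skin minus epidermis within each genotype was added after seeing the data. Alternatives covered background, normalization, filter, variance, probe choice, effect size (limma's treat, against 1.5-fold), replicate block and single arrays left out. The number of arrays limits precision.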

Additional observations from a re-analysis of the deposited data

Results flagged for a closer look

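The genotype effect differed between epidermis and skin, by the interaction term of limma, for 5 of the 12 probes. The difference, epidermis minus skin, was −1.69 for Endou (adjusted p = 0.0039), −1.64 for Calm4 (adjusted p = 5.3e-04), −1.62 for Calml3 (adjusted p = 0.0014), −1.23 for Krtdap by ILMN_2503521 (adjusted p = 9.1e-04) and −0.59 for Krtdap by ILMN_2868152 (adjusted p = 0.032). Across all kept probes 32.1% differed. The same term separates the first 6 from the last 6 sample columns, so genotype by tissue and column set cannot be told apart. No group has over 3 arrays, so outlying arrays were not looked for.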

How the results depend on the processing

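Counts are out of 12 probes, and Krt1-/- epidermis names arrays by their label. The 1.5-fold setting is limma's treat, which tests whether a change exceeds 1.5-fold. It is not a cutoff on the estimate, so a probe with an estimate above 1.5-fold can miss it. With 7 rising in Krt1-/- skin, the alternatives gave 2 (at least 1.5-fold) to 8, and leaving out single arrays 3 to 7; 3 remained without Krt1-/- skin replicate 2 or Krt1+/+ skin replicate 1. On average over both tissues 5 rose, against 1 at 1.5-fold and up to 7 with median centring, and 2 to 5 without single arrays, with 2 left without Krt1-/- epidermis replicate 1 or Krt1+/+ skin replicate 1 or 3, and 3 without Krt1-/- skin replicate 2, Krt1+/+ epidermis replicate 2 or Krt1-/- epidermis replicate 3. In epidermis 0 rose, against 3 with median centring and 1 in a fit of those arrays alone, and 0 to 3 without single arrays (3 without Krt1-/- epidermis replicate 3, 2 without Krt1+/+ epidermis replicate 3, 1 without Krt1+/+ skin replicate 1). There 1 fell, against 3 without background correction and in the deposited normalized table, 2 without a detection filter and with trended variance, 0 at 1.5-fold, and 0 to 1 without single arrays. Lower in skin than epidermis were 8, against 5 of 7 with the brightest probe of each gene (fewer probes tested) and 0 at 1.5-fold. Other alternatives gave up to 10, and leaving out single arrays gave 7 to 9. The 5 probes that differed between tissues stayed at 4 to 5.

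Values not called that changed sign were Sbsn in skin with median centring (0.36 for ILMN_2744374, 0.35 for ILMN_2671302) and Calml3 on average (0.11). Without single arrays Sbsn in skin ran from −0.24 to 0.23, −0.0838 to 0.36 and −0.18 to 0.17 (ILMN_2744374, ILMN_2951407, ILMN_2671302), ILMN_3032088 of Dmkn from −0.0121 to 0.62, and Calml3 on average from −0.10 to 0.0783. The cause was not tested.

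Of 18 pairs of arrays with equal replicate numbers 3 correlated over 0.1 once group means were removed (range −0.25 to 0.29). Only skin and epidermis of one genotype could share an animal. The highest value, 0.29, joins skin and epidermis replicate 2 labelled Krt1-/-, and the others over 0.1 cross genotype. With 3 arrays per group these values cannot decide whether arrays were paired. With the replicate block 6 rose in skin, 4 on average and 1 in epidermis, 4 differed between tissues and 9 were lower in skin; ILMN_1229763 of Dmkn was lost in skin and on average (limma adjusted p = 0.057 and 0.061).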
